A study of Caenorhabditis elegans with 3 samples.

Results

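The genes described here are 7 Caenorhabditis elegans loci that encode regulators of the epidermis and of its lateral stem-like cells, the seam cells. They are nhr-23, nhr-25, lin-26, blmp-1, rnt-1, bro-1 and ceh-16, chosen by name out of 19973 nuclear protein-coding genes. Each was searched for summits of the GATA factor ELT-3 by 3 rules. A summit counted when it fell in the promoter window (1000 bp before to 200 bp after the annotated 5′ end), anywhere in the gene body, or closer to that 5′ end than to the 5′ end of any other protein-coding gene. Chromatin immunoprecipitation with sequencing (ChIP-seq) had been used to map ELT-3 in whole L1 larvae, the first larval stage, of mixed sex and unstated age. All worms were of 1 transgenic strain, OP75, with the genotype unc-119(ed3) III; wgIs75, in which ELT-3 carries GFP-FLAG at its C terminus. The 3 libraries were of 1 group, with 1 library for biological replicate 1 and 2 technical libraries for biological replicate 2. There was no second condition. A possible control experiment is named but its data were not analysed here, and the promoter of the transgene is not stated. The files hold no expression values, so the tissue in which a summit arose was not measured.

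The worm epidermis is an epithelium that secretes the collagen cuticle and replaces it at each molt. LIN-26 is a zinc finger protein required for epidermal and other epithelial fates. NHR-23 and NHR-25 are nuclear receptors, related to vertebrate ROR and to Ftz-F1 respectively, that act in molting and epidermal differentiation. BLMP-1 is the worm homologue of the vertebrate zinc finger repressor Blimp-1 and acts in the timing of larval development. RNT-1 is the worm Runx protein, BRO-1 is its CBF-beta type partner, and both promote seam cell divisions. CEH-16 is an Engrailed-type homeodomain protein needed in the seam. ELT-3 is itself an epidermal GATA factor, a class that recognises GATA within short sequences such as TGATAA.

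In the list filtered on the irreproducible discovery rate (IDR), nhr-23, nhr-25, lin-26 and blmp-1 had 1 summit each and rnt-1, bro-1 and ceh-16 had none, where 6.44% of all protein-coding genes had one by any of the 3 rules. The replicate 2 list differed, and 19.7% of all protein-coding genes had a summit there by any of the 3 rules. In it rnt-1 had 3 summits, nhr-25 had 2, nhr-23 had 1, and lin-26, blmp-1, bro-1 and ceh-16 had 0. At 3 of the 4 IDR summits, those of nhr-23, nhr-25 and lin-26, the window holds no full GATA site. The same was true of 734 of all 1202 IDR summits. To show such windows, the sequences at nhr-25 and lin-26 are printed, together with a weaker summit inside nhr-25, and the nhr-23 sequence is not shown. Each line gives the summit base with 50 bases on each side, from the RefSeq copy of WBcel235 (the assembly also called ce11), plus strand, 5′ to 3′. Capitals mark every GATA core on either strand.
nhr-25 IDR summit, chrX:13008286-13008386: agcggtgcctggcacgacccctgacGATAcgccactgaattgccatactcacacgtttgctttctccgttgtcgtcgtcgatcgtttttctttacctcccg
nhr-25 pooled summit in the gene, chrX:13009094-13009194: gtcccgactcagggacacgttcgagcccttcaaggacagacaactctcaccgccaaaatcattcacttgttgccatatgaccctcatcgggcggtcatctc
lin-26 IDR summit, chrII:7683292-7683392: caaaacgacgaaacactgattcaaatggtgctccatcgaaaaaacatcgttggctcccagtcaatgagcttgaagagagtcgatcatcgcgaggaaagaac
The only core among the 3 sequences is in the nhr-25 IDR window, 1 GATA preceded by c and followed by c. A full GATA site was taken as one of 4 words, with A or T before the core and A or G after it, which are AGATAA and its variant AGATAG, and likewise TGATAA and its variant TGATAG. Both strands were searched, overlapping matches were counted separately, and the nhr-25 core spells none of the 4.

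The lists differ in what they contain, which bears on every value that follows. The IDR list has 1202 peaks, all of them also present in the pooled list of 10082 peaks, which was called on both replicates together. The replicate 1 list has 10775 peaks and overlapped 1202 of the IDR peaks (100%). The replicate 2 list has 4055 nuclear peaks and overlapped 117 of them (9.73%). Replicate 2 peaks had a median width of 596 bp, against 296 bp in the other lists. Their −log10 q-values ran from 2.43 to 3.18, against 2.2 to 3.32 in the IDR list and 0.0174 to 3.32 in the pooled list. The q-values were therefore read within a list and not compared between lists. Peak signals are the authors' values without a stated unit, so they were read as ranks within a list. The lists hold no read counts and the depth of the libraries is unknown. Pooled and replicate 1 entries include peaks with q-values close to 1, which are candidates and may be background. With 1 condition and genes chosen by name, no test was made, and counts of the 7 genes are set beside the percentage of all protein-coding genes that meet the same rule.

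By the promoter rule, 1 of the 7 genes had an IDR summit, nhr-25, against 3.44% of all protein-coding genes. By the gene body rule 3 of 7 had one, nhr-23, lin-26 and blmp-1, against 1.65%. As the gene with the nearest 5′ end 4 of 7 were found, against 5.18%, and by any of the 3 rules the same 4 of 7, against 6.44%. The gene body figure depends on length, since long genes offer more room. Among the 2774 genes at least as long as blmp-1 (5472 bp), 6.09% held an IDR summit, among those at least as long as nhr-23 (6555 bp) 7.33%, and among those at least as long as lin-26 (2567 bp) 3.60%. All 4 summits thus had a member as their nearest protein-coding 5′ end, and 3 of the 4 were within the transcribed gene. Shares by the nearest 5′ end, here and below, are over all genes and were not matched for the spacing of genes. The gap to the protein-coding gene upstream was 8850 bp for nhr-25, 6539 bp for blmp-1 and 2222 bp for nhr-23. lin-26 is overlapped by the protein-coding gene upstream. Non-coding RNA genes within these gaps were not counted.

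**Figure D1:**
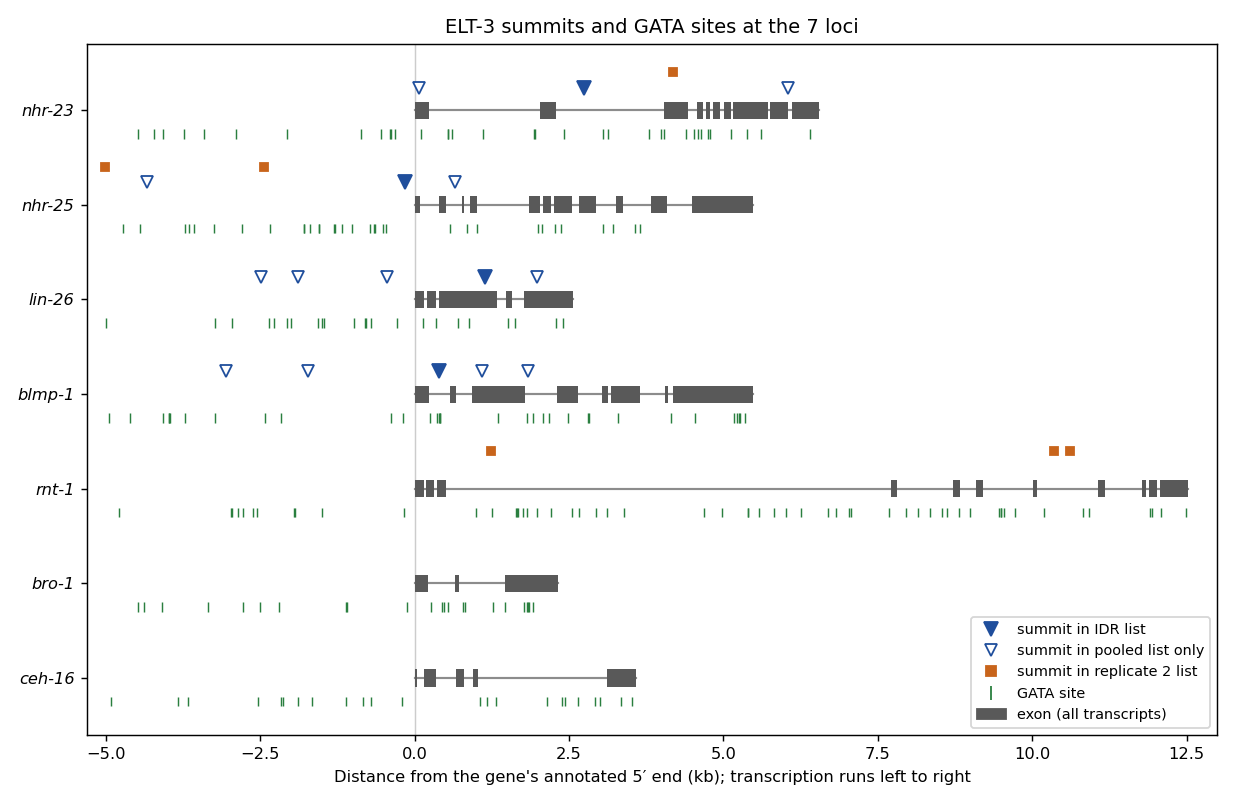
Map of the 7 loci, drawn to scale from 5 kb before each annotated 5′ end, with exons of all transcripts as blocks, GATA sites as green ticks, and the summits assigned to each gene by any of the 3 rules. Filled triangles are the 4 IDR summits, open triangles the other pooled summits and squares the replicate 2 summits. rnt-1, bro-1 and ceh-16 carry no triangle, and no square coincides with a triangle.

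nhr-23 (WBGene00003622, chromosome I, 7214745 to 7221299) had the strongest of the 4 IDR summits. It was 2750 bp downstream of the gene's 5′ end, in an intron, and 711 bp downstream of the nearest annotated start of one of the 6 nhr-23 transcripts. Its peak spanned I, 7217347 to 7217642, with a pooled signal of 55.1 (rank 400 of 10082, q = 0.000484). This q-value (−log10 q 3.32) is the lowest in the pooled list. All 4 IDR summits share it, so it does not separate them. The replicate 1 list gave 53.8 at the same summit (rank 425), and the replicate 2 list had no overlapping peak. No GATA site lay within 100 bp, and the nearest had its centre 307.5 bp downstream. The window was rich in G and C: 67.3% of its bases, higher than at 99.7% of IDR summits, whose median was 44.6%. A second nhr-23 summit, 77 bp downstream of the 5′ end in the 5′ untranslated region, was the strongest member summit outside the IDR list. Its pooled signal was 35.1 (rank 1230, q = 0.00610), against 35.50 for the lowest IDR peak and 35.48 for the highest pooled peak outside that list. It held 1 site, AGATAG, 32.5 bp downstream of the summit. The third pooled summit, at 6044 bp, was weak (signal 15.9, q = 0.887) and closer to the 5′ end of the neighbouring gene cnnm-4, which leaves 2 with nhr-23 as the nearest gene, a number reached by 10.2% of genes. The replicate 1 list had a further weak summit at -915 bp (signal 15.1, q = 0.902) with 1 AGATAA.

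blmp-1 (WBGene00003847, chromosome I, 10409302 to 10414773) was the member whose IDR summit held GATA sites. The summit was 399 bp downstream of the 5′ end in an intron, in the peak at I, 10409553 to 10409848. Its pooled signal was 40.8 (rank 924, q = 0.000484), replicate 1 gave 37.0 (rank 1101), and replicate 2 had no peak there. Within 50 bp lay 4 GATA sites, 3 TGATAA and 1 TGATAG, all on the minus strand. Their centres were at -33.5, -8.5, 5.5 and 12.5 bp from the summit, so 3 of them fell within 25 bp of it. As many as 4 sites in such a window occurred at 21 of the 1202 IDR summits (1.75%) and at 0.347% of pooled summits. blmp-1 was also the nearest gene to 5 pooled summits, the most among the 7 genes, and 0.786% of protein-coding genes were nearest to as many. Those upstream were at -3058 bp (signal 30.6, q = 0.0276) and -1722 bp (signal 21.7, q = 0.319), each inside a short annotated non-coding RNA gene, F25D7.8 and F25D7.6. Those within the gene were at 1099 bp in coding sequence (signal 15.6, q = 0.909) and at 1836 bp in an intron (signal 24.2, q = 0.170). The intronic one held a single TGATAA with its centre 12.5 bp upstream of the summit. Among pooled member summits outside the promoter window, the one at 399 bp was the closest to the edge, 199 bp past it, while the nhr-23 summit at 77 bp with a signal of 35.1 was the closest inside, 123 bp from it.

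nhr-25 (WBGene00003623, chromosome X, 13008493 to 13013964) was the only one of the 7 with an IDR summit in its promoter window. The summit lay 157 bp upstream of the 5′ end, in the peak at X, 13008188 to 13008483. Its pooled signal was 40.6 (rank 935, q = 0.000484), replicate 1 gave 37.9 at -160 bp (rank 1050), and replicate 2 had no peak there. A pair of overlapping non-coding RNA genes on opposite strands, F11C1.12 and F11C1.13, covers this summit, and with genes of all biotypes included the nearest 5′ end was that of F11C1.12. The first of the sequences printed above belongs to this summit. Its GC content was 54.5%, and the nearest full GATA site was centred at -304.5 bp from the summit. The other pooled summits were weaker. One, in an intron at 651 bp and at -122 bp from another annotated nhr-25 transcript start, also lies in an exon of the non-coding RNA gene F11C1.11 and had a signal of 20.6 (q = 0.409). The other, at -4328 bp between genes, had a signal of 19.5 (q = 0.520). In all 3 pooled summits had nhr-25 as the nearest gene, a number reached by 3.80% of genes.

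lin-26 (WBGene00003012, chromosome II, 7682198 to 7684764) had its IDR summit in coding sequence, 1144 bp downstream of the 5′ end, in the peak at II, 7683194 to 7683489. Its pooled signal was 40.5 (rank 944, q = 0.000484), replicate 1 gave 40.4 (rank 927), and replicate 2 had no peak there. The ranks 924, 935 and 944 place blmp-1, nhr-25 and lin-26 close together in the lower part of the IDR list, where the lowest rank is 1202. The lin-26 window held no GATA core, the nearest full site was centred at -256.5 bp from the summit, and its GC content was 45.5%. Of the other pooled summits, 3, at -1886, -441 and 1987 bp, had signals from 15.3 to 15.7 and q-values from 0.902 to 0.929. The first of them lies in an intron and the next in coding sequence of lir-1, the gene upstream of lin-26 on the same strand, whose annotated span overlaps the start of lin-26. Their assignment to lin-26 rests on the nearest 5′ end and, at -441 bp, on the promoter window. The last lies in the 3′ untranslated region, has F18A1.1 as the nearest 5′ end and also falls in the promoter window of that gene. With 4 pooled summits nearest to it, lin-26 stood among the 1.63% of genes with as many.

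**Figure D2:**
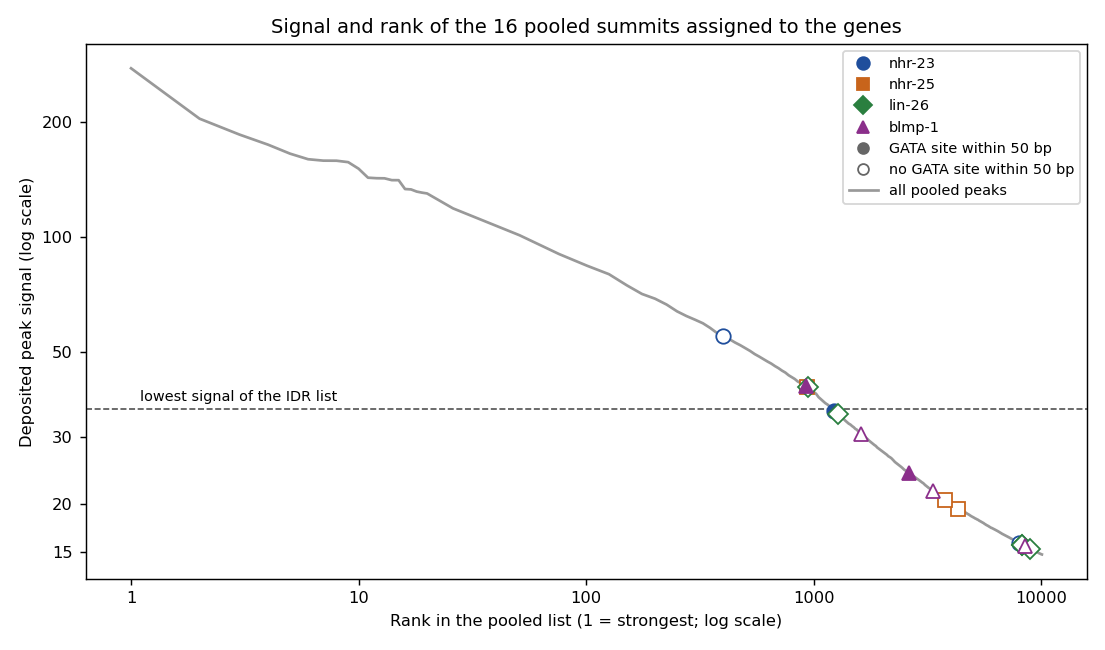
Deposited peak signal against rank for the pooled list, both on log scales, with the 16 pooled summits assigned to nhr-23, nhr-25, lin-26 and blmp-1 marked by gene. Filled symbols have a GATA site within 50 bp. The nhr-23 summit at 55.1 stands alone, 3 summits cluster at 40.5 to 40.8, and the nhr-23 summit at 35.1 falls just under the dashed line.

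In the pooled list the 4 genes had 16 summits with signals from 15.3 to 55.1 (median 23, against 18.5 for the list). Of these, 4 were in the IDR list and 3 more had a q-value of at most 0.05, a level reached by 18.8% of pooled peaks. The other 9 had q-values above 0.05. Replicate 1 overlapped 15 of the 16, against 93.8% of pooled peaks. Replicate 2 overlapped 0 of the 16, against 6.56% of pooled peaks. The lin-26 summit at 1987 bp was the one with no replicate 1 peak. By rule, 3 of the 7 genes had a pooled promoter summit (nhr-23, nhr-25 and lin-26, against 17.9% of genes), 4 a summit in the gene body (against 19.4%) and 4 were nearest to one (against 33.0%). By any of the 3 rules the same 4 genes were found (against 39.0%), and rnt-1, bro-1 and ceh-16 by none. Length again raises the gene body figure: a pooled summit lay in 55.2% of genes as long as nhr-23, 50.8% of those as long as nhr-25 and blmp-1, and 34.8% of those as long as lin-26. The replicate 1 list gave the same genes, with 3 of 7 by promoter (against 18.7%), 4 by gene body (against 20.6%), 4 as nearest gene (against 34.6%) and 4 by any rule (against 40.7%).

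rnt-1 (WBGene00004393, chromosome I, 5776093 to 5788611) is the longest of the 7 genes at 12519 bp. It had no IDR, pooled or replicate 1 summit by any rule. Among the 632 genes at least as long, 72.2% held a pooled summit and 12.5% an IDR summit. Its nearest IDR summit was 165432 bp upstream, a distance equalled or exceeded for 9.07% of genes (median 36079 bp over all genes), and its nearest pooled summit was at -7279 bp with a signal of 24.7. The replicate 2 list alone had summits in rnt-1, 3 of them, all in introns. The strongest, at 10346 bp, had a signal of 3.72 (rank 559 of 4055), on the scale of that list. Its q-value of 0.000657 (−log10 q 3.18) was at the lowest value of that list, whose q-values spanned a narrow range. Another at 10617 bp, from an overlapping peak, had a signal of 2.33, and one at 1233 bp had a signal of 2.31 and held 1 TGATAG 13.5 bp downstream of it. Of genes as long as rnt-1, 44.6% held a replicate 2 summit.

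bro-1 (WBGene00000272, chromosome I, 5186926 to 5189240) and ceh-16 (WBGene00000439, chromosome III, 8622735 to 8626314) had no summit by any rule in any of the 4 lists. From bro-1 the nearest pooled summit was at -9547 bp (signal 21.8) and the nearest IDR summit 74839 bp downstream (signal 35.8). From ceh-16 the nearest pooled summit was 12130 bp downstream (signal 16.7) and the nearest IDR summit 35815 bp downstream (signal 81.2). The stretch from 5000 bp upstream to the end of the gene held no pooled summit for rnt-1, bro-1 or ceh-16, which was also true of 49.9% of protein-coding genes. No IDR summit lay there either, as for 90.8% of genes. Among genes at least as long as bro-1, 32.9% held a pooled summit and 3.32% an IDR summit in the gene body, and among those as long as ceh-16 these shares were 40.7% and 4.57%. The distance to the nearest IDR summit was as large for 26.7% of genes as for bro-1 and for 50.2% as for ceh-16. In replicate 2, 73.3% of genes had no summit from 5000 bp upstream to the gene end. For bro-1 and ceh-16 the lack of a summit was thus common among genes. It was less common for rnt-1 by length, as 72.2% of genes at least as long held a pooled summit in the gene body. The partners rnt-1 and bro-1 both had no IDR or pooled summit, and neither had ceh-16. By any of the 3 rules 6.44% of all genes had an IDR summit and 39.0% a pooled summit. In replicate 2 the partners differed, with 3 summits for rnt-1 and 0 for bro-1.

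In replicate 2, nhr-23 had 1 summit, at 4188 bp (signal 2.45), and nhr-25 had 2, at -2433 bp (signal 2.35) and -5013 bp (signal 2.06). None lay in a promoter window, where 5.30% of genes had one. The replicate 2 summit closest to the nhr-23 5′ end, at -2692 bp (signal 4.12), was assigned to nhr-23 by no rule. The gene body rule found 2 of 7 genes, nhr-23 and rnt-1 (against 10.9%), and the nearest 5′ end rule also 2, nhr-25 and rnt-1 (against 16.3%). Any of the rules found 3 of 7 (against 19.7%), and 31.5% of genes as long as nhr-23 held a replicate 2 summit. lin-26 and blmp-1 had none. The positions of the summits assigned to nhr-23 and nhr-25 differed from those of the pooled list, with no overlap between peaks.

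GATA sites were present at the 7 loci with and without summits. From 5000 bp upstream to the end of the gene their density was 3.03 per kb for nhr-23, 3.15 for nhr-25, 3.04 for lin-26 and 3.15 for blmp-1. It was 3.25 per kb for rnt-1, 3.14 for bro-1 and 2.68 for ceh-16, against 2.38 for the nuclear genome. The loci without IDR summits therefore held sites at a density within or close to that of the others. Most sites were not at a summit: of 33 sites at blmp-1, 5 lay within 50 bp of a pooled summit, of 35 at nhr-23 1 did, and of 33 at nhr-25 and 23 at lin-26 0 did. Promoter windows differed more. nhr-23 and lin-26 held 6 sites each and nhr-25 held 5, while ceh-16 held 3, blmp-1 2, and rnt-1 and bro-1 1 each. The median over all protein-coding genes was 3, at least 1 site was found in 93.3% of promoter windows, and 11.7% of genes had 6 or more.

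**Figure D3:**
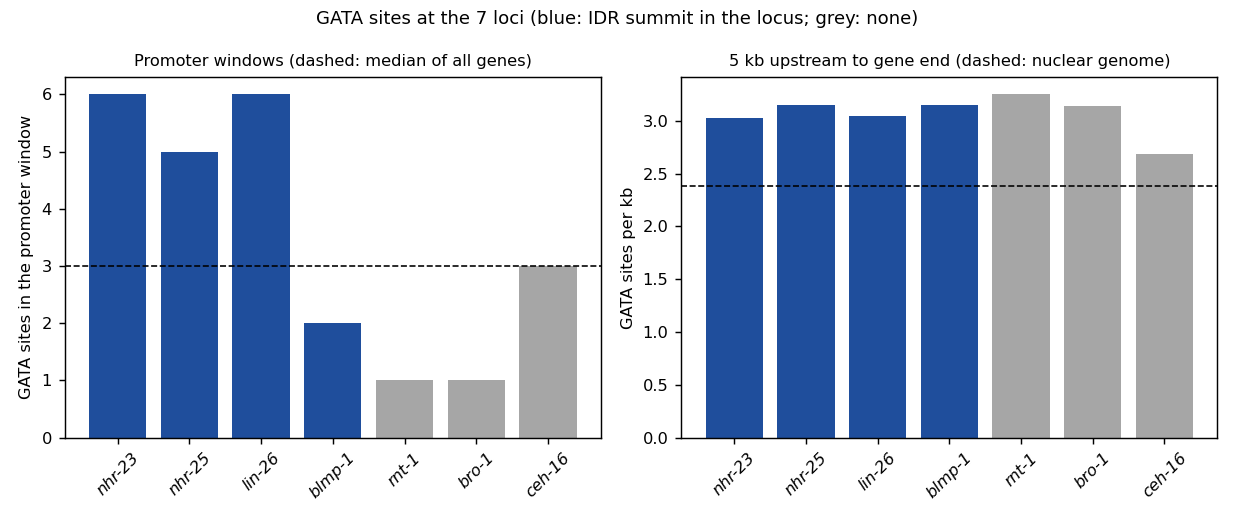
GATA sites at each locus, as the number in the promoter window (left) and the number per kb from 5 kb upstream to the gene end (right). Blue bars are loci with an IDR summit and grey bars loci without one. Per kb, rnt-1 at 3.25 and bro-1 at 3.14 reach the level of the blue bars.

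At the IDR summits themselves, 1 of the 4 member windows held a GATA site, that of blmp-1. Over the whole IDR list 468 of 1202 did (38.9%, exact 95% interval 36.2 to 41.8, counting error only), and 19.8% of consecutive genome windows of the same length did. At 3 of the 16 pooled summits a site was found (nhr-23 at 77 bp and blmp-1 at 399 and 1836 bp), against 27.5% of pooled summits. In the replicate 1 list 4 of 17 held one (against 27.1%), and in the replicate 2 list 1 of 6 (against 22.2%). With the GATA core alone, a match was found at 2 of the 4 IDR summits, blmp-1 and nhr-25, against 60.1% of IDR summits. The IDR windows without a site were richer in G and C than those with one (medians 48.5% and 39.6%). The member windows without a site, nhr-23 (67.3%), nhr-25 (54.5%) and lin-26 (45.5%), were likewise each above blmp-1 (41.6%). The lin-26 value was below the median of windows without a site. Base composition sets how often a short AT-rich word occurs, and its part in these counts was not tested.

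For other regulators of the epidermis and seam, a list of 32 genes was counted, all of them matched in the annotation. By any of the 3 rules 3 of the 32 had an IDR summit (9.38%, against 6.44% of genes). Promoter summits were found at myrf-2, a myelin-regulatory-factor type protein (-287 bp, signal 42.1), and at ceh-20, the worm Pbx homologue (-743 bp, signal 39.5), and lin-14, a heterochronic regulator, had one in the gene body. None of the named promoter summits held a GATA site within 50 bp. In the pooled list lin-14 (-205 bp, signal 34.3), pax-3 (50 bp, signal 23.4) and mab-5 (-898 bp, signal 18) followed, making 5 of 32 with a promoter summit (15.6%, against 17.9% of genes). A list of 26 regulators of other cell types was also counted, such as the gut factor elt-2, the pharyngeal factor pha-4 and the muscle factor hlh-1. Of these, 0 had an IDR summit by any rule, against 6.44% of genes. Both lists were chosen with earlier results of these data known. In the pooled list 8 of the 26 did (30.8%, against 39.0% of genes), and 21 of the 32 epidermal and seam regulators did (65.6%). In the replicate 2 list the shares were close to each other, 13 of 32 (40.6%) and 10 of 26 (38.5%), and both were above the 19.7% of all genes. lim-4 was the only one of the 26 with a pooled promoter summit (-316 bp, signal 15.7). The gene lists were not matched for gene length or spacing, and the difference between them was not tested.

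**Figure D4:**
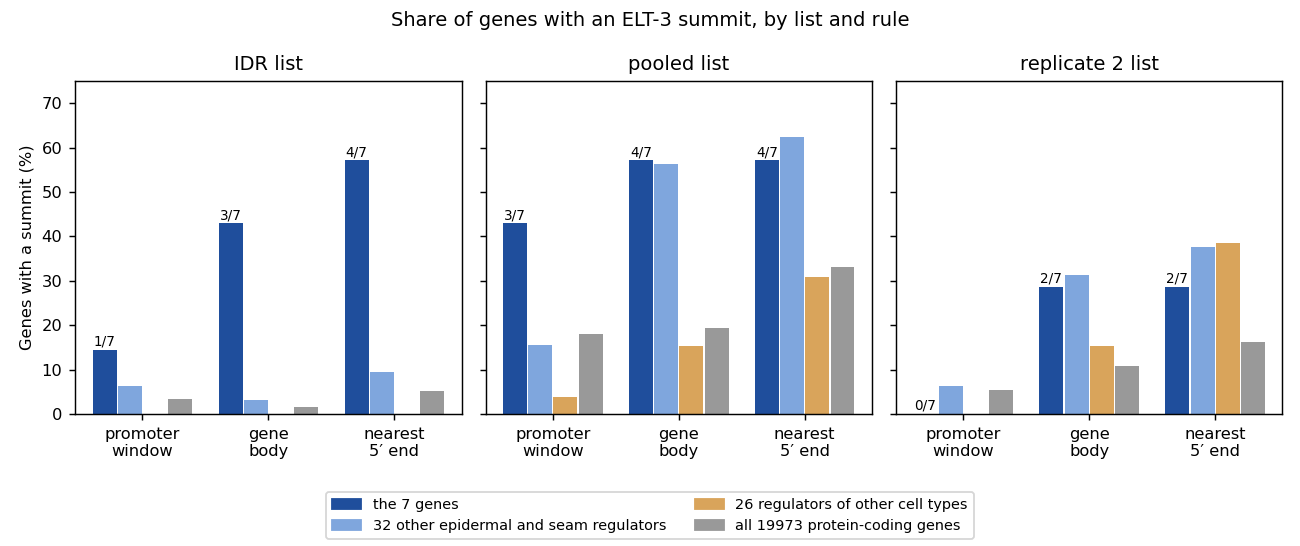
Percentage of genes with a summit in the promoter window, in the gene body or as nearest 5′ end, for the IDR, pooled and replicate 2 lists. Dark blue bars are the 7 genes, with their counts, light blue the 32 other epidermal and seam regulators, orange the 26 regulators of other cell types and grey all protein-coding genes. In the IDR list the 7 genes reach 57.1% for the nearest 5′ end, against 5.18% of all genes, and in replicate 2 they reach 28.6% against 16.3%.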

How the data were processed

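Peak lists in narrowPeak layout were used as deposited, in ce11 coordinates. The signal of each peak and the −log10 q-value are the authors' deposited values. Per the deposited records of derived files, 1 list came from each replicate's alignment, 1 from both alignments, and the IDR list from those 3. The aligner, the peak caller and any control used in calling were not given in the sources used here. Lists in ce10 were not used, and 25 mitochondrial replicate 2 peaks were left out.

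Summits (start plus offset, 1-based here) were assigned to Ensembl release 115 genes with Python 3.11.15 and pandas 2.3.3. GATA sites were searched in the RefSeq WBcel235 sequence. The summit was the centre of the peak for 1195 of 1202 IDR peaks. The assignment was checked on planted summits against a plain loop that used the same promoter window. The site search was checked on words planted in random sequence of C and G only. No GATA word can arise there otherwise, so false matches were not tested. Depth is unknown, and the one interval given is exact Clopper-Pearson.

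Members were named by rule whether bound or not, with genes that share their summits and the listed regulators that had a promoter summit. The genes elt-2, pha-4 and hlh-1 were named beyond it, after their values were seen. The sequence and single values of 1 pooled lin-26 summit are not reported here. The members and lists were chosen with earlier results of these data known. Alternatives covered lists, windows, 5′ ends, overlaps and motifs.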

Additional observations from a re-analysis of the deposited data

How the results depend on the processing

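Without replicate 2 or without replicate 1 (the other replicate's full list, or its 1202 strongest peaks), members with a promoter summit ran from 0 to 3, with one in the gene body from 1 to 4, as nearest gene from 0 to 4, summits from 1 to 17 (6 in the full replicate 2 list) and those with a GATA site from 0 to 4. The lowest values came from the strongest replicate 2 peaks, where only rnt-1 was found. The strongest replicate 1 peaks gave the same genes as the IDR list under each rule. That match is not independent: replicate 1 is part of the pooled list, and its peaks overlapped all 1202 IDR peaks. In the order promoter members, summits and GATA sites, the IDR list gave 1, 4 and 1, the pooled list 3, 16 and 3, and pooled peaks with q at most 0.05, a setting chosen after seeing the data, 2, 7 and 2. The stronger 601 IDR peaks left 0 promoter members, 1 in the gene body, 1 as nearest gene (nhr-23), 1 summit and 0 with a site. A promoter window of 2000 bp upstream and 500 bp downstream gave 2 members, adding blmp-1. The GATA core alone was found at 2 summits. The median percentage of peaks with a lower signal was 22.7 for the 4 summits in the IDR list and 70.5 for the 16 in the pooled list. Other epidermal and seam regulators with a promoter summit numbered 2, with 5 in the pooled list, 1 in a window of 500 bp upstream and 100 bp downstream, and 2 to 7 without 1 replicate. For regulators of other cell types the numbers were 0, 1 in the pooled list and 0 to 1 without 1 replicate. The remaining alternatives stayed within 1.5 times of the IDR values. The cause of these changes was not tested, beyond the number of peaks that each list holds.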
